A study of Mus musculus with 5 samples.

Results

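Kinesins and dynein are the motor proteins that carry cargo along microtubules, and the RNAs that encode them were followed here through an in vitro RNA binding experiment with mouse brain RNA. The motor genes were taken as all probe sets of the array that are annotated to exactly 1 gene symbol and whose symbol names a kinesin (Kif or Kifc), a kinesin light chain (Klc), a subunit of cytoplasmic dynein (Dync or Dynl) or a subunit of dynactin (Dctn). This rule found 146 of the 45101 probe sets, for 63 of the 18193 genes measured. By known function, 18 genes (62 probe sets) were grouped as axonal transport kinesins, 14 (27 probe sets) as mitotic kinesins, 19 (36 probe sets) as dynein and dynactin, and 12 (21 probe sets) as other kinesins. A further 4 probe sets match several symbols, a motor gene among them, and were left out. Klc2 had no probe set annotated to it alone. The rule used names only and no measured value.

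The study measured biotin-labelled RNA on 5 Affymetrix expression arrays. On 2 arrays the RNA had been eluted from deiminated MA-Brent-1 (deimination turns arginine residues into citrulline), and on 2 arrays it had been eluted from the non-deiminated protein. The remaining array is described as initial RNA without any binding experiment and is called input. Its title names it a null RNA control of brain, and what that term means is not explained in the sources used here. MA-Brent-1 is an mRNA export factor of the REF/Aly family, and the titles of deiminated replicate 2 and non-deiminated replicate 1 name the protein REFP2 instead. The title of non-deiminated replicate 2 marks it as a biological repeat, and no other title does. The strain, sex, age and number of the mice, and whether bound and input RNA came from the same extract, are not given in the sources used here. Binding took place outside cells, so the bound groups describe what the protein retained from brain RNA and not what the factor carries in a neuron.

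Conventional kinesin, or kinesin-1, is a tetramer of a pair of heavy chains (Kif5a, Kif5b or Kif5c), which walk on microtubules, and a pair of light chains, which take up cargo. In axons it moves vesicles, mitochondria and RNA granules away from the cell body, alongside the vesicle motors of the kinesin-3 family and the kinesin-2 motors. Cytoplasmic dynein carries cargo back towards the cell body and needs dynactin to travel far. Mitotic kinesins build the spindle, move chromosomes and complete cytokinesis, and they are expressed mainly in dividing cells, which are rare in the adult brain.

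The arrays share a scale on which the trimmed mean signal is 150, but their distributions differed. The middle of the distribution, between the 25th and 75th percentiles, ran from 8.05 to 124 and from 10.1 to 133 in deiminated-bound RNA, from 8.36 to 128 and from 11.4 to 135 in non-deiminated-bound RNA, and from 24.1 to 220.0 in input. The hybridisation controls, bacterial and phage transcripts added to every sample, averaged 10.59 and 12.60 log2 units in deiminated-bound RNA, 10.08 and 13.04 in non-deiminated-bound RNA and 17.04 in input. The input array therefore stood apart, it has no replicate, and no result against input can be given without it. Over the 146 motor probe sets, log2 signals correlated with Pearson's r of 0.958 to 0.982 between bound arrays and 0.569 to 0.603 between a bound array and input. The points of these correlations are probe sets of shared samples, and not independent.

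Motor transcripts were divided between those with higher and those with lower signals in bound RNA than in input. By the brightest probe set of each gene, the kinesin-1 heavy chains, Klc1, Kif2a and most subunits of cytoplasmic dynein were higher in bound RNA. The mitotic kinesins Kif23 and Kif11 were lower. Most kinesin-2 and kinesin-3 genes passed the test in neither direction by that probe set. Other probe sets of several of them did pass, some higher and some lower. Signal filtering left 96 motor probe sets of 50 genes for testing with limma, at a Benjamini-Hochberg adjusted p under 0.05 over all 27022 kept probe sets. A probe set past that threshold is called higher or lower. For deiminated protein against input, 32 motor probe sets were called higher and 18 lower, or 52.1% of 96, where 51.5% of all probe sets were called (24.9% higher and 26.6% lower). For non-deiminated protein against input, 30 were higher and 19 lower, or 51.0%, against 50.5% of all probe sets (24.7% higher and 25.7% lower). The share of motor probe sets called was thus close to that of the array as a whole. Without deiminated replicate 1 the 18 lower calls became 8. The balance of directions rested on the scaling: against the 32 higher and 18 lower for deiminated protein, cyclic loess gave 28 and 13, quantile normalisation 40 and 14, centring each array on its median 52 and 2, and centring on the hybridisation controls 27 and 0. These last alternatives moved the median difference of all genes by 0.35, 0.71, 1.5 and 5.44 log2 units, in the same order. Among the 50 genes past the filter, the mean bound signal of Kif11, Kif15 and Kif23 lay under the level of the filter (a signal of 25.5), and so did the input signal of Kif1a, Kif2a, Kif26b and Dync1li1. These genes passed only through the group where they were high, which fixed their direction.

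Bright and dim probe sets behaved differently across the whole array. Of all non-control probe sets, 25.2% had all 4 bound arrays above input and 54.7% had all 4 below. Where the mean bound signal was 500 or more these shares were 82.0% and 9.15%, and where it was under 50 they were 6.35% and 71.1%. Among motor probe sets, 27 of 32 (84.4%) were above input in the bright class and 50 of 68 (73.5%) were below input in the dim class. Between these limits 14 of 46 (30.4%) were above, against 43.9% of all probe sets. The part of signal level in the differences below was not tested.

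**Figure D1:**
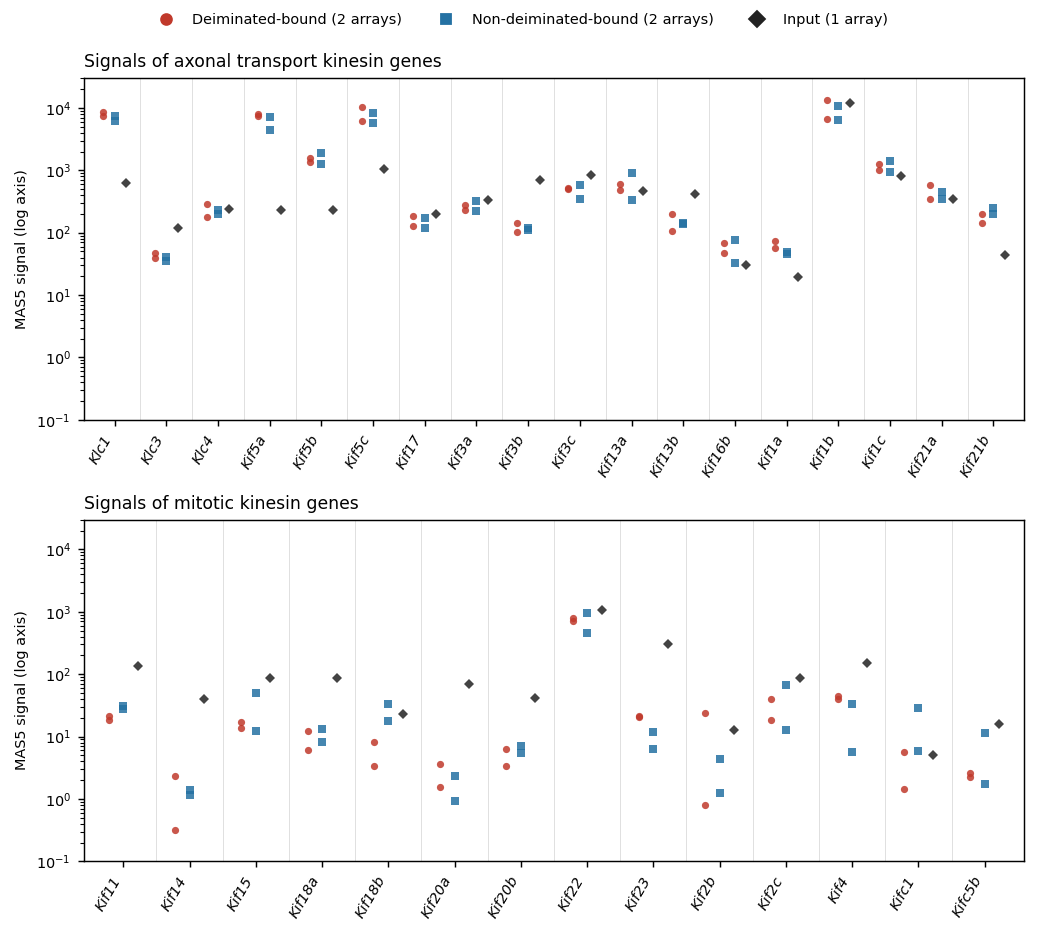
MAS5 signal (log axis, no unit) of each axonal transport kinesin gene (top) and each mitotic kinesin gene (bottom) on the 5 arrays; circles are deiminated-bound, squares non-deiminated-bound and diamonds input RNA. For Kif5a, Kif5b, Kif5c and Klc1 every bound point lies above input, whereas all 4 bound points lie below input for 11 of the 14 mitotic genes.

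All 3 kinesin-1 heavy chain genes were called higher in bound RNA than in input with both proteins. Kif5a, the heavy chain found mainly in neurons and mutated in a form of hereditary spastic paraplegia in humans, had signals of 7507 and 7956 in deiminated-bound RNA, 4357 and 7082.5 in non-deiminated-bound RNA and 234 in input (probe set 1434670_at). All 4 bound arrays lay far above input, and both deiminated arrays lay above both non-deiminated ones. The log2 difference from input was 5.02 ± 0.46 for deiminated protein (SE from limma, 2 arrays against 1; limma adjusted p = 5.37e-06) and 4.55 ± 0.46 for non-deiminated protein (limma adjusted p = 1.19e-05). Kif5a was called higher under all 18 alternatives, with differences of 3.45 to 10.46 for deiminated protein. Its second kept probe set was dim, at 29.2 and 48.2 in deiminated-bound RNA, 24.4 and 14.3 in non-deiminated-bound RNA and 38.6 in input, and had a difference of -0.03 that did not pass.

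Kif5c, another neuronal heavy chain, gave 6067 and 10506 in deiminated-bound RNA, 5647 and 8307 in non-deiminated-bound RNA and 1052 in input (1455266_at). Bound and input signals did not overlap, while the deiminated and non-deiminated arrays did. It rose by 2.92 ± 0.52 log2 units with deiminated protein (limma adjusted p = 0.00083) and by 2.70 ± 0.52 with non-deiminated protein (limma adjusted p = 0.00145). A second Kif5c probe set, 1422945_a_at, read 2056 and 2417 in deiminated-bound RNA, 2145 and 2607 in non-deiminated-bound RNA and 15.9 in input. That is a difference of 6.80 for deiminated and 6.88 for non-deiminated protein, against an input signal under the lower quartile of that array (24.1). The remaining 2 Kif5c probe sets lay under the filter and ran the other way, with 1.82 to 25.2 and 6.88 to 39.7 on the bound arrays against 233 and 136 in input.

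Kif5b is the heavy chain made in most cell types. Its brightest probe set (1418431_at) had 1583 and 1339 in deiminated-bound RNA, 1269 and 1899 in non-deiminated-bound RNA and 235 in input. It rose by 2.61 ± 0.40 with deiminated protein (limma adjusted p = 0.000258) and by 2.70 ± 0.40 with non-deiminated protein (limma adjusted p = 0.000209). All 5 kept Kif5b probe sets were called higher in both comparisons, with differences of 1.54 to 5.19 for deiminated and 1.29 to 5.12 for non-deiminated protein.

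Of the light chains, Klc1, the main neuronal form that links kinesin-1 to vesicle cargo, had 7360.2 and 8745 in deiminated-bound RNA, 7309 and 6149.6 in non-deiminated-bound RNA and 615 in input. All 4 bound arrays of this probe set (1417005_at) lay above input, and both deiminated arrays lay above both non-deiminated ones. Klc1 rose by 3.70 ± 0.46 with deiminated protein (limma adjusted p = 5.92e-05) and by 3.44 ± 0.46 with non-deiminated protein (limma adjusted p = 0.000107). A second kept Klc1 probe set had -0.36 and -0.42 and did not pass. Klc3 and Klc4, the other light chains measured, did not pass in either comparison. Klc3 had 38.8 and 47.7 in deiminated-bound RNA, 35.0 and 40.6 in non-deiminated-bound RNA and 120.5 in input, so that all bound arrays lay below input. Klc4 overlapped with input, at 179 to 286 in deiminated-bound RNA, 202 to 232 in non-deiminated-bound RNA and 237 in input.

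The kinesin-3 genes carry synaptic vesicle precursors, mitochondria and endosomes. Of their 6 genes, each read from its brightest probe set, 0 were called higher and 1, Kif13b, was called lower in each comparison. Kif1a, the motor for synaptic vesicle precursors, had 74.7 and 56.5 in deiminated-bound RNA, 49.8 and 46.3 in non-deiminated-bound RNA and 19.4 in input. Every bound array exceeded input, but at this low signal the differences of 1.55 ± 0.72 (limma adjusted p = 0.0864) for deiminated and 1.15 ± 0.72 (limma adjusted p = 0.196) for non-deiminated protein did not pass. Kif1a passed as higher in 5 of 17 alternatives with deiminated and 4 of 17 with non-deiminated protein. In both comparisons these were median centring, quantile normalisation, cyclic loess and centring on the hybridisation controls. With deiminated protein the model without a trend was the other.

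Kif1b encodes isoforms that carry mitochondria or synaptic vesicle precursors, and its 7 kept probe sets ran in both directions. The brightest, 1451200_at, had 6734 and 13285 in deiminated-bound RNA, 6357 and 10694 in non-deiminated-bound RNA and 12197 in input. Its groups overlapped, and differences of -0.37 ± 0.62 for deiminated and -0.56 ± 0.62 for non-deiminated protein did not pass. A second probe set, 1423994_at, had 1773 and 1852 in deiminated-bound RNA, 2176 and 1029 in non-deiminated-bound RNA and 72.3 in input, and it rose by 4.57 and 4.29. Another, 1423995_at, had 645 and 600.2 in deiminated-bound RNA, 896 and 740.3 in non-deiminated-bound RNA and 2389 in input, and its difference was -1.93 for deiminated and -1.55 for non-deiminated protein, called lower in both. No single direction can therefore be given for Kif1b RNA.

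Kif13b, which transports vesicles bearing phosphoinositides, had 108 and 203 in deiminated-bound RNA, 143 and 137 in non-deiminated-bound RNA and 416 in input. It fell by 1.46 on the log2 scale with deiminated protein and by 1.54 with non-deiminated protein, turning positive (3.98 and 3.93) when arrays were centred on the hybridisation controls. Without deiminated replicate 1 the deiminated difference was -1.02 and did not pass. Kif1c, Kif13a and Kif16b, which move other vesicles and endosomes, had differences of 0.51, 0.22 and 0.83 for deiminated protein and 0.51, 0.26 and 0.68 for non-deiminated protein, and none passed. A dim second probe set of Kif13a was called lower, at -4.06 and -2.87.

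Kinesin-2 motors serve both axonal transport and the assembly of cilia. By the brightest probe set, all 4 bound arrays lay below input for each of the 4 genes, but only Kif3b passed. Kif3b, which pairs with Kif3a in the heterotrimeric motor, had 104 and 144 in deiminated-bound RNA, 118 and 109.9 in non-deiminated-bound RNA and 694 in input. It fell by 2.46 ± 0.45 log2 units with deiminated protein (limma adjusted p = 0.00103) and by 2.56 ± 0.45 with non-deiminated protein (limma adjusted p = 0.000816). Both calls were lost after median centring, and centring on the hybridisation controls turned them to 2.98 and 2.91. A dim second probe set of Kif3b was called higher with deiminated protein, at 2.38, with signals of 52.8 and 58.9 in deiminated-bound RNA, 44.7 and 29.2 in non-deiminated-bound RNA and 7.32 in input.

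Kif3a, the shared subunit of kinesin-2, had differences of -0.38 for deiminated and -0.30 for non-deiminated protein. Kif17, a homodimeric motor of dendrites that was counted with the axonal transport kinesins, had -0.40 and -0.49. Neither passed, although a dimmer probe set of each did: 1 of Kif3a was called higher, at 1.60 and 1.74, and 1 of Kif17 lower, at -1.98 and -2.25. Kif3c, a neuronal partner of Kif3a, had 504 and 521 in deiminated-bound RNA, 343 and 585 in non-deiminated-bound RNA and 831 in input, with differences of -0.69 and -0.89 that did not pass. Without non-deiminated replicate 2 the second of these was -1.27 and passed. Its other probe set, 1434947_at, had 455 and 548 in deiminated-bound RNA, 466 and 749.5 in non-deiminated-bound RNA and 59.0 in input. By that probe set Kif3c was called higher, at 3.0 for deiminated and 3.24 for non-deiminated protein.

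The kinesin-4 motors Kif21a and Kif21b act in axons and dendrites of neurons. Kif21b had 145 and 197 in deiminated-bound RNA, 246 and 200.1 in non-deiminated-bound RNA and 44.2 in input. Bound arrays did not overlap with input, and the deiminated arrays were the lower of the bound ones. It rose by 1.84 ± 0.48 with deiminated protein (limma adjusted p = 0.00743) and by 2.22 ± 0.48 with non-deiminated protein (limma adjusted p = 0.00277). Without deiminated replicate 2 the first of these was 1.62 and did not pass. Kif21a had 350.4 and 571 in deiminated-bound RNA, 343 and 447 in non-deiminated-bound RNA and 346 in input, and differences of 0.37 and 0.18 did not pass. A second Kif21a probe set, 1450738_at, had 448 and 698 in deiminated-bound RNA, 639.8 and 514 in non-deiminated-bound RNA and 26.1 in input, and was called higher at 4.22 and 4.25.

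Kif2a, which depolymerises microtubule ends and limits the growth of axon branches, does not walk along microtubules and was counted with the other kinesins. Its brightest probe set (1450053_at) read 545 and 378 in deiminated-bound RNA, 539.8 and 323 in non-deiminated-bound RNA and 6.18 in input. Kif2a was called higher with deiminated protein (a difference of 5.47 ± 0.47, limma adjusted p = 3.53e-06) and with non-deiminated protein (5.35 ± 0.47, limma adjusted p = 4.32e-06). The input signal lay under the lower quartile of its array, and set against that quartile Kif2a was at least 16.2-fold higher with deiminated and at least 14.9-fold higher with non-deiminated protein. The direction was not shared by its second kept probe set, which had 158 and 81.5 in deiminated-bound RNA, 155 and 132 in non-deiminated-bound RNA and 201 in input, with -0.80 and -0.48 that did not pass.

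Mitotic kinesins had low signals in bound RNA. Across the 27 probe sets the median signal was 5.86 over the bound arrays and 42.1 in input, and all 4 bound arrays lay below input in 21 (77.8%) and above it in 1 (3.70%). Of all probe sets under the same brightness of 50, 71.1% lay below input, against 20 of the 26 mitotic ones (76.9%). Only 8 probe sets of 6 genes passed the signal filter. Since Kif11, Kif15 and Kif23 passed it through their input signal alone, no count of calls over the 6 genes is given.

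Kif23, which bundles the central spindle in cytokinesis, had 20.3 and 21.0 in deiminated-bound RNA, 11.7 and 6.36 in non-deiminated-bound RNA and 303 in input. Both groups were far below input without overlap, and the deiminated arrays exceeded the non-deiminated ones. Kif23 fell by 3.63 ± 0.90 with deiminated protein (limma adjusted p = 0.00612) and by 4.57 ± 0.90 with non-deiminated protein (limma adjusted p = 0.00174), although centring on the hybridisation controls turned both positive (1.81 and 0.91). Kif11, which pushes spindle poles apart, had 18.7 and 21.2 in deiminated-bound RNA, 27.3 and 30.8 in non-deiminated-bound RNA and 133 in input. It fell by 2.51 with deiminated protein (limma adjusted p = 0.0211) and by 2.05 with non-deiminated protein (limma adjusted p = 0.0497), again turning positive (2.93 and 3.42) with the hybridisation controls. The deiminated call was lost without either deiminated array (-2.44 and -2.58), and the non-deiminated call held under 4 of 17 alternatives and was lost without non-deiminated replicate 1 (-1.97). Another kept probe set of Kif11 had 1.45 and 1.38, which did not pass.

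Kif4, a chromokinesin, had 39.8 and 43.9 in deiminated-bound RNA, 33.2 and 5.69 in non-deiminated-bound RNA and 152 in input. It fell by 3.02 ± 0.91 with non-deiminated protein (limma adjusted p = 0.0161) and turned to 2.45 with the hybridisation controls, while the difference of -1.76 ± 0.91 for deiminated protein did not pass. Without either non-deiminated array the same -1.76 passed. Kif15, a spindle motor, and Kif2c, which depolymerises microtubules at kinetochores, had differences of -2.22 and -1.54 for deiminated and -1.60 and -1.41 for non-deiminated protein, none of which passed. Kif15 passed with deiminated protein (-2.22) without either non-deiminated array, and without non-deiminated replicate 2 Kif15 and Kif2c passed with non-deiminated protein, at -2.45 and -2.43. A second, dimmer probe set of Kif2c was called lower, at -4.16 and -4.41. Kif22, a chromokinesin, was the bright exception, with 713 and 807 in deiminated-bound RNA, 956 and 464 in non-deiminated-bound RNA and 1084 in input. Its differences of -0.51 and -0.70 did not pass, and the second was -1.22 and passed without non-deiminated replicate 1. Its other 2 probe sets lay under the filter.

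Mitotic kinesins under the filter had signals near the bottom of the scale. Kif20a, a motor of cytokinesis, had 3.67 and 1.57 in deiminated-bound RNA, 0.938 and 2.31 in non-deiminated-bound RNA and 69.6 in input. Kif14, which also acts in cytokinesis, had 0.318 and 2.35, 1.40 and 1.16, and 39.7 on the same arrays in that order. Kif18a, which aligns chromosomes, had 6.12 to 13.3 on the bound arrays and 87.1 in input, and Kif20b had 3.42 to 7.05 on the bound arrays and 42.1 in input. Kifc1, a minus-end spindle motor, overlapped with input, at 1.43 and 5.61 in deiminated-bound RNA, 5.85 and 28.3 in non-deiminated-bound RNA and 5.13 in input.

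Of 20 listed cell division markers, such as Mki67 and Top2a, 19 were measured and 11 passed the filter. Of these 11, Ccna2, Cdk1, Cenpe, Nusap1 and Plk1 passed through input alone, so their calls are not counted. The median difference over the 19 was -2.61 with deiminated and -2.58 with non-deiminated protein. Testis markers, a group the brain should lack, had medians of -2.65 and -2.72, and all genes -0.53 and -0.48. The summed signal of the cell division markers was 433 and 552 in deiminated-bound RNA, 430.1 and 869 in non-deiminated-bound RNA and 3515 in input, and all 4 bound arrays lay below input for 16 of 19. None of these markers had a signal of 0. The lower quartile of all signals was also higher in input (24.1) than on any bound array (8.05 to 11.4), and the part of a raised level of dim signals in input was not tested. Since the sources used here do not tie the input to the bound RNA, fewer dividing cells, less RNA per cell and less binding cannot be told apart.

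Set side by side over all member genes, whether or not they passed the filter, the median log2 difference between deiminated-bound RNA and input was 0.29 for the 18 axonal transport kinesins, -1.99 for the 14 mitotic kinesins and -0.53 for all 18193 genes. For non-deiminated protein these medians were 0.22, -1.82 and -0.48. The median of transport kinesins was 0.04 without deiminated replicate 2 (deiminated) and turned to -0.02 without non-deiminated replicate 2 (non-deiminated), so its direction rested on single arrays. Relative to all genes, past the filter or not, transport kinesins thus lay 0.82 higher and mitotic kinesins 1.47 lower with deiminated protein. All 18 transport kinesins passed the filter, however. Over the 13055 genes past it the median was closer to theirs, at 0.11 with deiminated and 0.12 with non-deiminated protein. Over 6 other scalings and pseudocounts the value relative to all 18193 genes ran from -0.45 to 0.89 for transport kinesins, negative after cyclic loess. For mitotic kinesins it ran from -1.75 to -0.23. Signs differed within the transport group, with 10 genes positive and 8 negative in each comparison. In the mitotic group 0 of 14 were positive with deiminated and 2 with non-deiminated protein, and only 6 of the 14 passed the filter. Of all 18193 genes, 7486 were positive with deiminated and 7557 with non-deiminated protein. The groups also differed in brightness, with a median input signal of 338 for transport and 78.0 for mitotic kinesin genes, and the part of brightness in their separation was not tested.

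Of the remaining kinesins, Kif26b, which acts in kidney development in mice, rose by 1.90 ± 0.67 with deiminated and by 1.80 ± 0.67 with non-deiminated protein (limma adjusted p = 0.031 and 0.0396), from dim signals of 82.5 and 78.5 in deiminated-bound RNA, 99.2 and 56.1 in non-deiminated-bound RNA and 18.6 in input. Its calls were lost without either deiminated array (1.86 and 1.93 for deiminated, 1.80 for non-deiminated protein) and, for non-deiminated protein, without non-deiminated replicate 1 (1.41). Kif27, related to a regulator of Hedgehog signalling and of cilia, had 34.7 and 18.2 in deiminated-bound RNA, 45.7 and 15.4 in non-deiminated-bound RNA and 162 in input. It fell by 2.49 and by 2.41, and lost its calls without deiminated replicate 2 (-2.09) and non-deiminated replicate 2 (-1.73). Kifc3, a minus-end motor of epithelial junctions, fell by 1.40 and by 1.54, with 128 and 152 in deiminated-bound RNA, 152 and 105 in non-deiminated-bound RNA and 377 in input, and the first of these did not pass without either deiminated array (-1.28 and -1.52). Kif26a, a kinesin of enteric neurons in mice, fell by 1.84 with deiminated protein alone, against -1.44 with non-deiminated protein, which did not pass. Without deiminated replicate 1 the first was -1.38 and did not pass while the second, at the same -1.44, did, and without non-deiminated replicate 2 the second was -2.21 and passed. With the hybridisation controls the called differences of Kif27, Kifc3 and Kif26a turned positive, between 2.95 and 4.04. Kifc2, a neuronal minus-end kinesin, had 0.73 and 0.31, which did not pass.

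**Figure D2:**
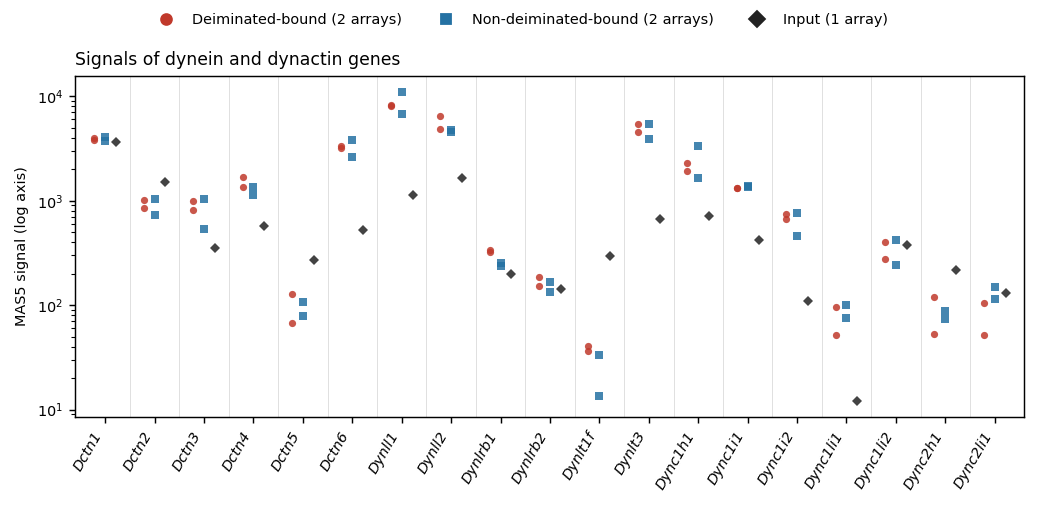
MAS5 signal (log axis, no unit) of each dynein and dynactin gene on the 5 arrays; circles are deiminated-bound, squares non-deiminated-bound and diamonds input RNA. All 4 bound points lie above input for 12 of the 19 genes, among them Dynll1, Dynlt3, Dctn6 and Dync1i2, and below it for 4.

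Most called genes of dynein and dynactin were higher in bound RNA than in input. Of the 19 genes, each read from its brightest probe set, 10 were called higher and 2 lower with deiminated protein, and 9 and 2 with non-deiminated protein. In each comparison 1 of the higher calls was of Dync1li1, whose input signal lay under the filter level. It passed the filter only through bound RNA, which fixed its direction. Over their 34 kept probe sets, 14 were higher and 6 lower with deiminated protein (58.8% called), and 13 and 5 with non-deiminated protein (52.9%). Of all probe sets, 24.9% were called higher and 26.6% lower with deiminated and 24.7% and 25.7% with non-deiminated protein. All 19 passed the filter. Of the 15 dynein and dynactin probe sets with a mean bound signal of 500 or more, 14 (93.3%) had all 4 bound arrays above input, against 82.0% of all probe sets that bright. Dimmer ones did not exceed the array. From 50 to 500, 4 of 15 (26.7%) were above, against 43.9% of all. Under 50, 0 of 6 were above, against 6.35%, and 6 were below (100%, against 71.1%). The median difference over the 19 genes was 1.34 and 1.08. Without non-deiminated replicate 1 the second of these medians was 0.61. The medians lay 1.87 and 1.56 above that of all 18193 genes, past the filter or not (-0.53 and -0.48). Over genes past the filter, as these 19 were, the median of all was higher, at 0.11 and 0.12. Over the other scalings and pseudocounts the value relative to all 18193 genes shrank to as little as 0.20 and 0.02, after cyclic loess.

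Dync1h1 encodes the heavy chain, the motor subunit. It had 1928 and 2284 in deiminated-bound RNA, 3323 and 1666 in non-deiminated-bound RNA and 718 in input, with every bound array above input. It rose by 1.54 ± 0.46 with deiminated protein (limma adjusted p = 0.0143) and by 1.71 ± 0.46 with non-deiminated protein (limma adjusted p = 0.00927). Without deiminated replicate 2 the first of these was 1.42 and did not pass, and quantile normalisation ended both calls. A dim second probe set, with 13.2 and 46.0 in deiminated-bound RNA, 20.8 and 26.5 in non-deiminated-bound RNA and 154 in input, was called lower in both, at -2.42 and -2.51.

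Intermediate chains link the heavy chain to cargo and to dynactin. Dync1i2, the widely expressed form, had 738 and 663 in deiminated-bound RNA, 758 and 458 in non-deiminated-bound RNA and 109 in input. It rose by 2.63 ± 0.41 with deiminated protein (limma adjusted p = 0.000313) and by 2.39 ± 0.41 with non-deiminated protein (limma adjusted p = 0.000675). Dync1i1, the form enriched in neurons, had signals that barely differed among bound arrays, with 1337 and 1322 in deiminated-bound RNA, 1339 and 1375 in non-deiminated-bound RNA and 424 in input. It rose by 1.64 ± 0.37 and by 1.67 ± 0.37 (limma adjusted p = 0.00343 and 0.00325), though after cyclic loess or with the hybridisation controls it did not pass.

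Light intermediate chains bind the cargo adaptors. Dync1li1 rose by 2.21 ± 0.69 with deiminated protein (limma adjusted p = 0.0189) and by 2.50 ± 0.69 with non-deiminated protein (limma adjusted p = 0.0112), from 52.0 and 96.5 in deiminated-bound RNA, 75.9 and 101 in non-deiminated-bound RNA and 12.1 in input. Without deiminated replicate 2 the first of these was 1.79 and did not pass. The direction of Dync1li1 was fixed by the filter, since its input signal lay under the filter level. Its paralog Dync1li2 overlapped with input, at 399 and 276 in deiminated-bound RNA, 419.7 and 241 in non-deiminated-bound RNA and 379.5 in input, with differences of -0.19 and -0.25.

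Light chains of the Dynll family bind many proteins besides dynein. Dynll1 had 8198 and 8064 in deiminated-bound RNA, 6812 and 11050 in non-deiminated-bound RNA and 1130.1 in input. It rose by 2.84 ± 0.51 and by 2.94 ± 0.51 (limma adjusted p = 0.000829 and 0.000687), and 3 of its 4 probe sets were called higher in both comparisons. Dynll2 had 4900.5 and 6476 in deiminated-bound RNA, 4564 and 4769 in non-deiminated-bound RNA and 1661 in input, and rose by 1.76 ± 0.45 and by 1.49 ± 0.45 (limma adjusted p = 0.00734 and 0.0173), the second turning to -0.04 after cyclic loess. Without deiminated replicate 2 neither passed (1.56 and 1.49), nor did the second without deiminated replicate 1 (1.49). The Tctex-type light chain Dynlt3 had 4555 and 5366 in deiminated-bound RNA, 3879 and 5383 in non-deiminated-bound RNA and 668 in input. It rose by 2.88 ± 0.44 and by 2.77 ± 0.44, and 3 of its 4 probe sets were called higher.

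Dynlt1f, of the same light chain type, was the exception, with 41.1 and 36.8 in deiminated-bound RNA, 33.1 and 13.6 in non-deiminated-bound RNA and 296 in input. It fell by 2.80 and by 3.54, turning to 2.64 and 1.94 with the hybridisation controls. Near-identical copies of this gene exist in the mouse, and 3 of the probe sets left out because of several symbols match such copies, so the value is uncertain. The roadblock light chains Dynlrb1 and Dynlrb2 had 0.72 and 0.23 with deiminated and 0.29 and 0.05 with non-deiminated protein, none of which passed.

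Dynactin is the large complex that ties dynein to cargo and keeps it on the microtubule. Dctn6 and Dctn4, at the pointed end of its actin-like filament, rose. Dctn6 had 3334 and 3221 in deiminated-bound RNA, 2639 and 3801 in non-deiminated-bound RNA and 525 in input, and rose by 2.63 ± 0.42 and by 2.58 ± 0.42 (limma adjusted p = 0.000352 and 0.000427). Dctn4 had 1343 and 1673 in deiminated-bound RNA, 1144 and 1352 in non-deiminated-bound RNA and 576 in input, and rose by 1.37 ± 0.38 and by 1.10 ± 0.38, turning to -0.05 and -0.28 after cyclic loess. Without deiminated replicate 2 neither passed (1.21 and 1.10), nor did the second without deiminated replicate 1 (1.10). With deiminated protein 2 other, dimmer Dctn4 probe sets were called lower. Dctn5, also of the pointed end, had 67.0 and 129 in deiminated-bound RNA, 108 and 78.5 in non-deiminated-bound RNA and 268 in input and fell by 1.49 and by 1.5, turning to 3.96 and 3.98 with the hybridisation controls. The first was -1.03 and did not pass without deiminated replicate 1, and the second did not pass without deiminated replicate 2 (-1.5) or non-deiminated replicate 2 (-1.28).

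Dctn3, in the shoulder of the complex, rose by 1.34 ± 0.43 with deiminated protein (limma adjusted p = 0.021), against 1.08 ± 0.43 with non-deiminated protein (limma adjusted p = 0.0519), which did not pass. It had 991 and 813 in deiminated-bound RNA, 1035 and 541 in non-deiminated-bound RNA and 352 in input. Without deiminated replicate 1 the first was 1.2 and did not pass, and without non-deiminated replicate 2 the second was 1.55 and passed. Dctn1, the subunit that binds microtubules and dynein, was bright and nearly level, with 3814 and 4014 in deiminated-bound RNA, 4092 and 3768 in non-deiminated-bound RNA and 3686 in input. Its differences of 0.09 in both comparisons did not pass. They passed after cyclic loess as lower (-1.5 and -1.43) and after median centring as higher (1.58 and 1.51). Dctn2, which holds the shoulder together, had -0.69 and -0.78 and did not pass, with the second at -1.03 and past the test without non-deiminated replicate 2. Dynein-2, which returns cargo inside cilia, was represented by Dync2h1 and Dync2li1, and neither passed, with -1.40 and -0.78 for deiminated and -1.39 and 0.01 for non-deiminated protein.

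**Figure D3:**
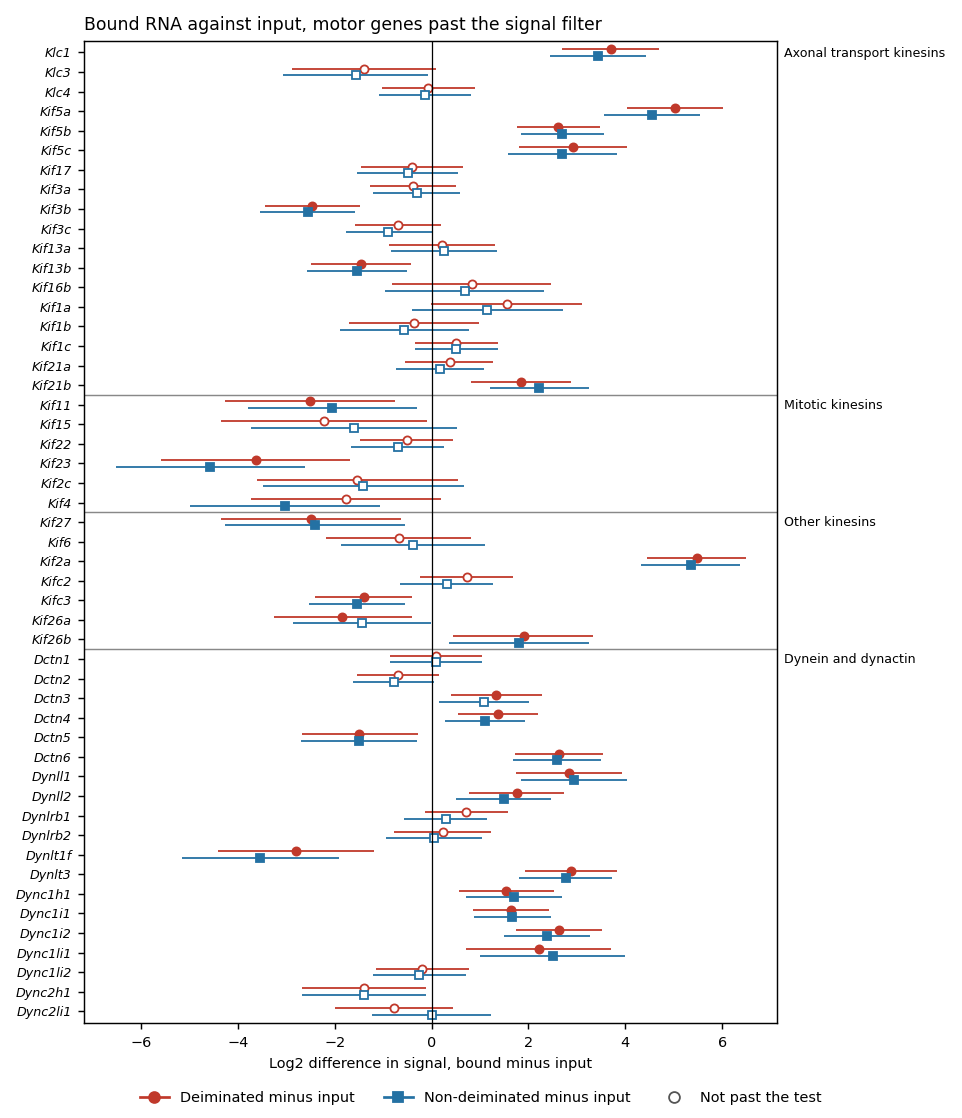
Log2 difference in signal from input, with 95% intervals from limma, for the 50 motor genes past the signal filter; red circles are deiminated and blue squares non-deiminated protein, filled where the adjusted p was under 0.05. Both comparisons share the input array. By measured value Kif2a, Kif5a and Klc1 lie farthest to the right and Kif23 and Dynlt1f farthest to the left; centring on the hybridisation controls moves all values to the right by about 5.44 (deiminated) and 5.48 (non-deiminated).

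Both comparisons against input use the same input array, so the deiminated and non-deiminated values of a gene are not independent. Among the motor genes, Kif5a, Kif5b, Kif5c, Klc1, Kif2a, Dync1i2, Dynll1, Dynlt3 and Dctn6 were called higher in both comparisons under all 18 alternatives run for them. Other calls depended on the scaling. Of the motor genes called lower by their brightest probe set, those described above all lost the call with the hybridisation controls. After median centring only Kif23 and Dynlt1f kept it, with non-deiminated protein. Cyclic loess ended the calls of Kif11, Kif4, Kif27, Kif26a and Dctn5, and with deiminated protein those of Kif23 and Dynlt1f. It also ended the higher calls of Dync1h1, Dync1i1, Dynll2, Dctn3 and Dctn4. With a block for the protein named in the title, Kif26b and Dctn5 lost both calls, and Kif11, Dynll2 and Dctn4 the one with non-deiminated protein.

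**Figure D4:**
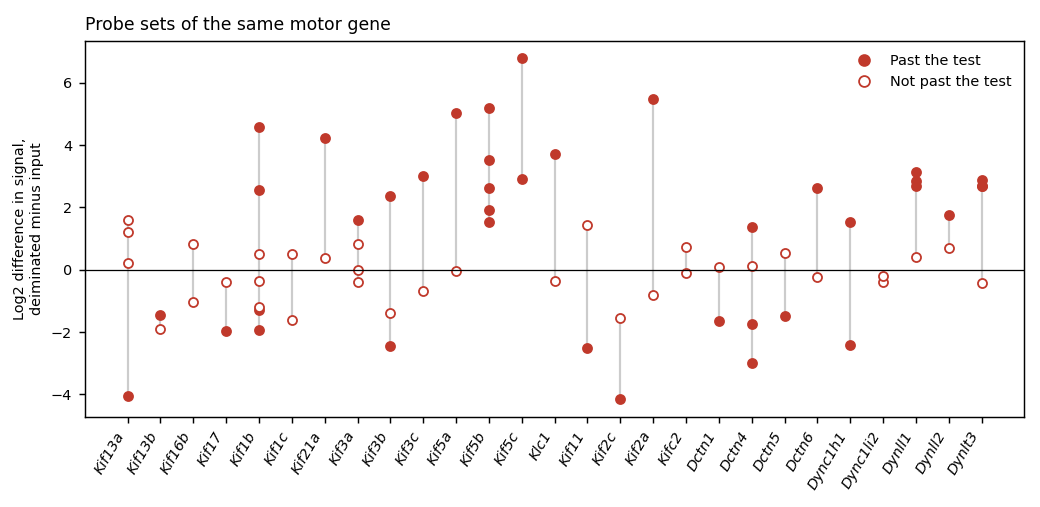
Log2 difference between deiminated-bound RNA and input for every kept probe set of the 27 motor genes with at least 2; filled points passed the test, and a grey line joins the probe sets of a gene. All 5 points of Kif5b lie above 0, whereas Kif1b, Kif3b, Dctn4 and Dync1h1 have filled points on both sides.

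Different probe sets of a motor gene often disagreed. Of the 27 motor genes with at least 2 kept probe sets, all probe sets had the same sign in 9 (33.3%) with deiminated protein, against 40.5% of the 5643 such genes on the array. In 4 genes (14.8%) probe sets were called in both directions, namely Kif1b, Kif3b, Dctn4 and Dync1h1, against 19.4% of all genes. With non-deiminated protein the shares were 9 (33.3%, against 41.1%) and 3 (11.1%, against 18.6%). Across the 27 genes, the 2 brightest probe sets of a gene correlated with r of 0.57 and 0.59 in deiminated-bound RNA, 0.57 and 0.54 in non-deiminated-bound RNA and 0.39 in input, as a description only. Which stretch of each transcript a probe set reads was not analysed here.

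Adaptors and regulators connect the motors to cargo, and 35 of 38 listed were measured, 32 of them past the filter. With deiminated protein 16 rose and 3 fell, and with non-deiminated protein 16 rose and 2 fell. That is 59.4% and 56.2% of these genes called, each by its brightest probe set, where 51.5% and 50.5% of all probe sets were. Of all probe sets, 24.9% were called higher and 26.6% lower with deiminated and 24.7% and 25.7% with non-deiminated protein. Those shares cover probe sets of every brightness and not the brightest of each gene, so they are no like measure. The part of signal level was not tested. The median difference over the 35 adaptor genes was 1.04 and 0.94, against -0.53 and -0.48 for all genes and 0.11 and 0.12 for genes past the filter. In each comparison 3 of the higher calls were of genes with an input signal under the filter level, namely Spag9, Mapk8ip3 and Fez2. For 1 of the lower calls, Bicdl2, the mean bound signal lay under that level. These genes passed the filter only through the group where they were high, which fixed their direction. Spag9, a scaffold that links kinesin-1 and dynein to cargo, had 2721 and 2023 in deiminated-bound RNA, 3104 and 1687 in non-deiminated-bound RNA and 8.0 in input. It was called higher with deiminated protein (7.59 ± 0.43, limma adjusted p = 7.27e-07) and with non-deiminated protein (7.56 ± 0.43, limma adjusted p = 8.13e-07). Against the lower quartile of input, under which its input signal lay, Spag9 was at least 83.1-fold higher with deiminated and at least 81.0-fold higher with non-deiminated protein.

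The related scaffold Mapk8ip3 rose by 4.07 and by 4.23, with 304 and 355 in deiminated-bound RNA, 328 and 409 in non-deiminated-bound RNA and 15.6 in input. Fez2, of a family of kinesin-1 adaptors, rose by 3.92 and by 4.03, and Kifbp, a protein that binds several kinesins and keeps them off microtubules, by 3.79 and by 3.57. In the other direction, Rilp, which brings dynein to late endosomes, fell by 3.67 with deiminated protein, against -1.90 with non-deiminated protein, which passed only without deiminated replicate 2 (-1.90) or non-deiminated replicate 2 (-2.21) among the arrays left out. Bicdl2, a dynein adaptor, fell by 2.86 (not past the test without either deiminated array, at -2.88 and -2.85) and by 3.06, and Rhot2, which anchors motors to mitochondria, by 2.21 and by 2.04. With the hybridisation controls, the called differences of these last 3 genes turned positive, between 1.77 and 3.44.

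Markers of brain cell types moved in the same comparisons, each gene read from its brightest probe set. Of all probe sets, 24.9% were called higher and 26.6% lower with deiminated protein, and 24.7% and 25.7% with non-deiminated protein. At a mean bound signal of 500 or more, where most neuronal, astrocyte and oligodendrocyte markers lay, 82.0% of all probe sets had all 4 bound arrays above input. Neuronal markers were all measured, and 12 of 14 rose and 0 fell with either protein; their summed signal was 29210.4 and 33480 in deiminated-bound RNA, 27559.7 and 31462 in non-deiminated-bound RNA and 8071 in input. Astrocyte markers (6 of 8 higher, 0 lower) and oligodendrocyte markers (5 of 7 higher, 0 lower) did likewise with either protein. Microglia and blood markers went both ways, with 2 higher and 1 lower of 5 kept with deiminated protein and 2 and 2 with non-deiminated protein (medians of -0.49 and -0.97). Endothelial markers had medians of 0.37 and -0.09. Their called genes, Slco1a4 and Cdh5, passed the filter only through the group where they were high, which fixed their direction, so these calls are not counted. The same held for Tubb3, Mag, Alas2 and Ccdc153 among the higher calls of the other lists and for Spag6l among the lower ones. Summed signals were 29942 and 35231 in deiminated-bound RNA, 27452 and 34489.7 in non-deiminated-bound RNA and 7158 in input for astrocytes, and 30839 and 58227, 24600 and 69935, and 49333 in the same order for oligodendrocytes. Choroid plexus and ciliary markers had 1 higher and 3 lower of 8 kept with deiminated protein and 1 and 4 with non-deiminated protein. Testis markers had 2 of 10 past the filter. The only called one, Zpbp, passed through input alone, so its call is not counted. Their summed signal was 126 and 188 in deiminated-bound RNA, 113 and 247 in non-deiminated-bound RNA and 679.9 in input. The part of cell type in the motor results was not tested.

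Whether deimination alters which motor RNAs are bound is asked by setting the bound groups against each other, and no motor gene was called. limma called 0 of the 96 motor probe sets and 0 of all 27022 (0.0%), with an unadjusted p under 0.05 for 1 motor probe set against 356 of all (1.32%). Signals of the groups did not overlap for 20 motor probe sets (20.8%), 14 higher and 6 lower with deiminated protein, where 24.1% of all probe sets did not overlap. The exception at the unadjusted threshold was a Kif1b probe set, 1455182_at, with 97.0 and 94.1 in deiminated-bound RNA, 73.5 and 16.3 in non-deiminated-bound RNA and 227 in input. Its difference of 1.32 (95% interval 0.02 to 2.62; limma adjusted p = 0.9999) rested on the low signal of non-deiminated replicate 2: it was 2.31 between the arrays whose titles say MA-Brent-1 and 0.34 between those whose titles say REFP2.

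The motor differences between the bound groups were each estimated from 2 arrays against 2, and none passed the test. Over the 96 probe sets they ran from -1.19 to 1.32. Over all member genes, past the filter or not, the median was 0.13 for transport kinesins, -0.15 for mitotic kinesins, 0.06 for dynein and dynactin and -0.02 for all genes. Over the 6 mitotic kinesins past the filter it was 0.03. Without deiminated replicate 2 the median of transport kinesins turned to -0.13, and without non-deiminated replicate 2 that of mitotic kinesins turned to 0.12, so neither has a settled sign. Kif5a had 0.48 (95% interval -0.33 to 1.29), made up of 0.08 between the MA-Brent-1 arrays and 0.87 between the REFP2 arrays. Kif5b had -0.09 (-0.79 to 0.61), Kif5c 0.22 (-0.70 to 1.14) and Klc1 0.26 (-0.55 to 1.07). Dync1i1 had the narrowest of the intervals, at -0.03 (-0.68 to 0.62).

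Among genes past the filter, the largest difference was in the mitotic Kif4, at 1.26 (-0.35 to 2.87), where non-deiminated replicate 2 again read low. It was 2.16 between the MA-Brent-1 arrays and 0.36 between the REFP2 arrays, and 0.23 and 2.29 between the arrays with lower and with higher hybridisation controls. In the other direction Dync2li1 had -0.78 (-1.78 to 0.22), with 105 and 52.2 in deiminated-bound RNA against 115 and 149 in non-deiminated-bound RNA. The 95% interval lay within a 2-fold change in either direction for 42 motor probe sets (43.8%), against 24.2% of all probe sets, and within 4-fold for 87 (90.6%). For the other motor probe sets a 2-fold change lay inside the interval in at least 1 direction.

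**Figure D5:**
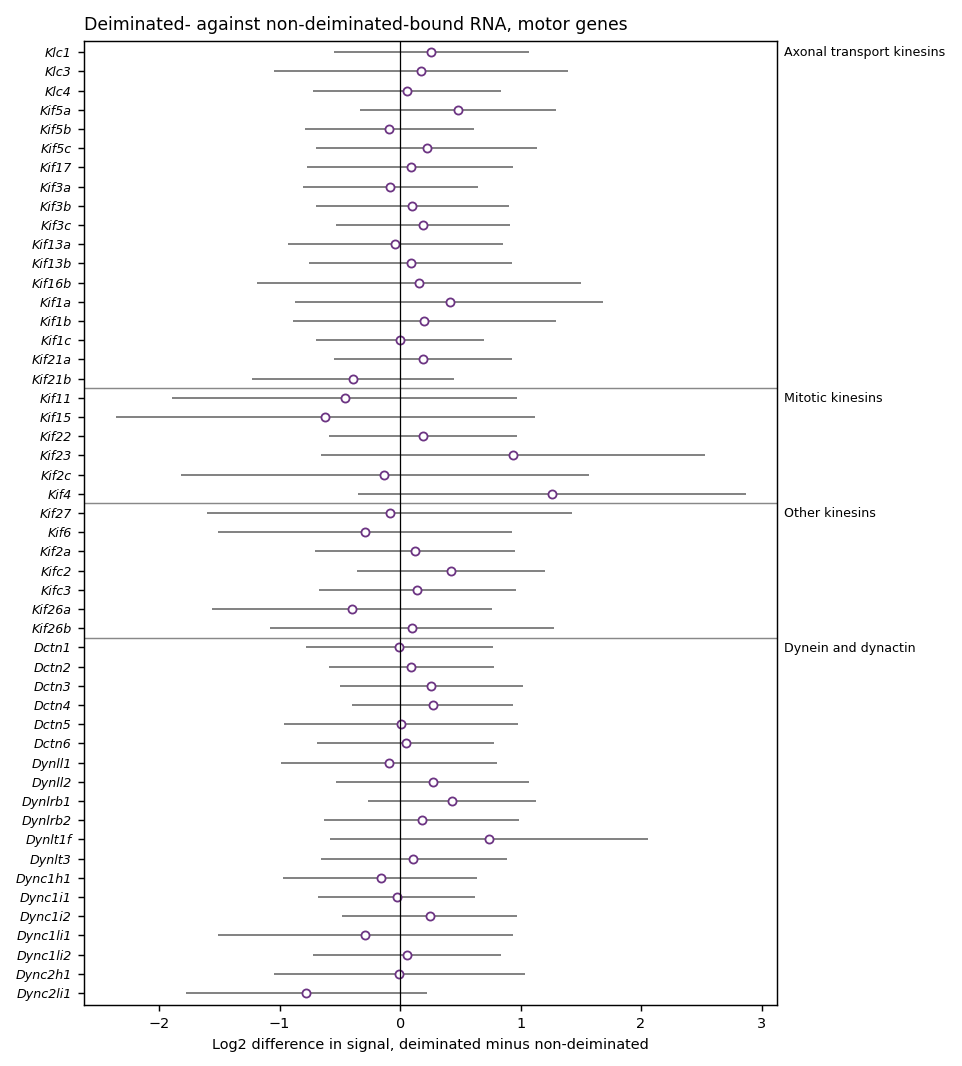
Log2 difference between deiminated- and non-deiminated-bound RNA, with 95% intervals from limma (2 arrays in each group), for the 50 motor genes past the signal filter. Every interval includes 0, and those of the dim mitotic genes Kif4, Kif15 and Kif2c are the widest.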

How the data were processed

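RNA was measured on 5 Affymetrix arrays, with 2 arrays of RNA bound to deiminated protein, 2 of RNA bound to non-deiminated protein and 1 of input RNA. The deposited values are 1 signal intensity per probe set on a linear scale, made by the authors with MAS5, per the submitters' processing notes. MAS5 version and scanner settings are not given in the sources used here. Trimmed by 2% at both ends, every array had a mean of 150, which puts the deposited intensities on a common scale. The number of arrays limits the precision.

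Log2 was taken after adding a pseudocount of 4.18, set to the median signal (41.8) divided by 10, which understates the differences of dim probe sets. After setting aside 64 control probe sets, those with a mean log2 signal at or above the 40th percentile were kept, 27022 of 45037. limma 3.58.1 in R 4.3.3 (lmFit and eBayes with a trend) fitted the means of the 3 groups in 1 model with 2 residual and 10.91 prior degrees of freedom. The spread at input is thus borrowed from the 4 bound arrays, and a group left with 1 array is treated alike. Adjusted p is Benjamini-Hochberg over all kept probe sets. The ± values are limma standard errors. One title calls its array a biological repeat, but the labels tie no array to an animal, extract or binding, so p-values reflect only how these samples varied, which may be technical.

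A gene was represented by its brightest probe set (mean over the 5 arrays). The platform annotation names 1 gene for 34945 probe sets, several for 932 and none for 9160, and all 63 motor genes kept their symbol in the RefSeq gene table. The motor genes, their classes, the lists of adaptors and markers and the alternatives were chosen with earlier results of these data known. Genes named with statistics are a list of kinesin, dynein and dynactin genes plus up to 4 further called members per comparison and direction, and up to 4 called adaptors per direction. Second probe sets named in the text were chosen after their values were seen. Alternatives covered the pseudocount (1.05 and 16.7), the filter (none, or the 60th percentile), array weights, scaling across arrays, the model of the variance, the protein named in the title or the level of the hybridisation controls as a block, the choice of probe set and leaving out each bound array. The model was also run on simulated data with known changes. There all 5 arrays were given the spread of the bound arrays. That run therefore cannot check the p-values against the lone input array. Figures were drawn with matplotlib 3.10.9 in Python 3.11.15.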

Additional observations from a re-analysis of the deposited data

How the results depend on the processing

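No paired analysis was possible because replicate numbers were given by accession order. Blocks for the protein named in the title and for the level of the hybridisation controls were fitted in its place. The 0 calls between deiminated and non-deiminated protein held under all alternatives run, the 4 bound arrays alone included. Dim signals limit most mitotic kinesins, and the lone input array, which cannot be left out, limits every difference from input. For a gene called in neither setting a change of sign is not listed: there were 21 of 816 gene and setting pairs for deiminated and 27 of 816 for non-deiminated protein against input, and 60 of 862 between them. A median over member genes past the filter was an alternative added after seeing the data. For values below without a stated reason, the cause was not tested.

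Against the 18 and 19 motor probe sets called lower with deiminated and non-deiminated protein, there were 43 and 42 with no filter, where more probe sets were tested, and 9 and 9 with the stricter filter, where fewer were. Median centring gave 52 and 47 higher and 2 and 3 lower, in place of 32 and 30 higher. Scaling to the hybridisation controls gave 27 and 31 calls in all, with 0 and 0 lower. The lower calls with deiminated protein ran from 8 to 25 when 1 bound array was left out. The medians against input are given for deiminated and then non-deiminated protein. Transport kinesins had -0.63 and -0.71 after cyclic loess, 1.79 and 1.64 after median centring, 5.74 and 5.69 with the controls, and 0.67 and 0.59 with the probe set brightest on the bound arrays. Dynein and dynactin had 0.02 and -0.18, 2.84 and 2.50, and 6.78 and 6.56 in the first 3 of these settings, 0.63 and 0.79 after quantile normalisation, and 1.31 with 4 times the pseudocount (deiminated). Mitotic kinesins had -0.41 and -0.44, -0.50 and -0.41, and 3.45 and 3.65 in the first 3, -0.92 and -0.87 after quantile normalisation, -1.49 and -1.29 with 4 times the pseudocount, -0.51 and -0.70 with the stricter filter, and, with deiminated protein, -2.34 with a pseudocount of 1.05 and -1.67 with the brightest bound probe set. Between deiminated and non-deiminated protein, dynein and dynactin had 0.14 after median centring and 0.03 with the controls, and mitotic kinesins 0.19 with the stricter filter. Leaving out 1 bound array gave ranges with deiminated protein of 0.04 to 0.49 for transport kinesins, 1.2 to 1.34 for dynein and dynactin and -2.08 to -1.96 for mitotic kinesins. With non-deiminated protein they were -0.02 to 0.24, 0.61 to 1.08 and -2.19 to -1.60, and between the bound groups -0.13 to 0.32, 0.00 to 0.15 and -0.46 to 0.12.

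Single genes changed sign as follows, for deiminated and then non-deiminated protein where both did. After cyclic loess Dctn1 had -1.5 and -1.43, Dctn4 -0.05 and -0.28, and Dynll2 -0.04 (non-deiminated). Median centring gave, for deiminated protein, Dctn5 0.01, Kif13b 0.04, Kifc3 0.09 and Kif1b 1.13. With the probe set brightest on the bound arrays Dctn5 had 0.55 and 0.69, Kif11 1.45 and 1.38, and Kif3c 3.0 and 3.24, each read from another probe set. Scaling to the hybridisation controls, which shifts every difference alike, gave Bicdl2 2.58 and 2.42, Dctn5 3.96 and 3.98, Dynlt1f 2.64 and 1.94, Kif11 2.93 and 3.42, Kif13b 3.98 and 3.93, Kif23 1.81 and 0.91, Kif27 2.95 and 3.07, Kif3b 2.98 and 2.91, Kifc3 4.04 and 3.93, and Rhot2 3.23 and 3.44. It also gave Kif26a 3.61 and Rilp 1.77 for deiminated and Kif4 2.45 for non-deiminated protein. Of the other gene and setting pairs against input, 690 and 684 kept their direction and side of the threshold.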
